A study of Mus musculus with 61 samples.

Results

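Splicing factor genes of 4 families were followed in stimulated mouse CD4 T cells: the serine and arginine rich factors (Srsf), the proteins of the small nuclear ribonucleoproteins (Snrp), the heterogeneous nuclear ribonucleoproteins (Hnrnp), and the Sf3a and Sf3b subunits of the U2 particle. Members were all genes whose symbol in the platform annotation starts with Srsf, Snrp, Hnrnp, Sf3a or Sf3b and that had a probe set, the group of short probes that reads a transcript, naming no other gene. The brightest such probe set stood for each gene. Of 12291 genes named in this way, 43 were members: 9 Srsf, 8 Snrp, 17 Hnrnp and 9 Sf3a or Sf3b genes. A further 18 probe sets of these families matched several genes and were left out, so Hnrnpa3, Hnrnph3, Snrpa, Snrpd1 and Snrpd2 are not among the members. Of the 43 genes, 42 passed the filter on low values. Snrpn, which in most tissues is read from the paternal allele alone, did not pass, with a mean intensity of 16.5 on its only probe set used. Other probe sets of Snrpn also name Snurf or a further gene and were left out, so this value does not show whether Snrpn was expressed. Some probe sets of Hnrnpa1 and Hnrnpab were left out in the same way.

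The spliceosome removes introns from newly made RNA. It is put together from small nuclear ribonucleoproteins. Most hold a small nuclear RNA in a ring of Sm proteins, encoded here by Snrpb, Snrpd3, Snrpe and Snrpg, beside proteins of their own. SR proteins bind exon sequences and generally favour the use of nearby splice sites, hnRNP proteins coat the new RNA and often oppose it, and the Sf3a and Sf3b subunits hold the U2 particle on the branch point. In T cells the best known example of regulated splicing is Ptprc (CD45), whose variable exons are skipped after activation with the help of Hnrnpll.

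Naive CD4 T cells of C57BL/6 mice were stimulated with anti-CD3 at 1 µg/ml and a second antibody at 1 µg/ml, which the labels write as anti-CD8, without (ctrl) or with (IL27) the cytokine IL-27, given at 25 ng/ml. The labels attach this protocol, IL-27 included, to all 61 arrays, so the arm and the time of each array come from its title. On HT_MG-430A arrays each arm had 26 arrays over 18 times from 0.5 to 72 h, 2 at each of 8 times and 1 at each of 10. On Mouse430A_2 arrays there was 1 array of control cells at 0 h, 1 per arm at 4, 16 and 48 h, and 1 each of 48 h samples titled GFPP and GFPN, names that the labels do not explain. Titles give times without a unit, read here as hours. No label ties arrays to separate cultures or mice, so a p-value here speaks of the spread among the arrays alone, and that spread may be technical.

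The control array at 12 h stood apart from the rest: its best correlation with another array was 0.871, while every other array reached 0.977 or more. On it, 18 of the 42 members lay more than 0.5 from the mean of their neighbours in time on the log2 scale and 7 lay more than 1 away, while the IL27 array at 12 h had 0 such members. The control 12 h array held Hnrnpl at 27.8, and the control arrays at 14 and 16 h held it at 822.4, 904.5 and 901.8. Counts are therefore also given without this array. All 7 CD4 T cell markers with a named probe set, Cd3e and Cd4 among them, were above the array median on at least 5 arrays of each arm. Of 6 B cell markers 0 reached this within either arm, but 2 passed the filter over both arms together. Of these 2, 1 was called lower from 4 to 8 h to 12 to 20 h in each arm. Of the CD8 T cell markers, Cd8a stayed between 9.5 and 20.4 on control arrays and between 9.98 and 17.2 on IL27 arrays, and Cd8b1 lay above the median, at 82.2 to 313.1 and 44.3 to 139.7. Cd8b1 was lower with IL-27 in the middle (-0.58 on the log2 scale) and late (-0.62) windows and rose by 0.47 in control cells from 12 to 20 h to 42 to 72 h. Of the NK cell markers only Nkg7, which activated T cells can also express, was above the median on 5 or more arrays. The summed intensity of the NK cell list ranged from 57.5 to 3183 on control arrays and from 59.7 to 3425 on IL27 arrays. It is nearly all Nkg7, which rose late by 2.47 in control cells and 2.89 in the IL27 arm, and was higher with IL-27 by 0.88 in the middle and 1.62 in the late window, while Ncr1 stayed at or below 17.4. The sum of the B cell list ranged from 76.2 to 254.5 on control and from 73.9 to 211.9 on IL27 arrays, and that of 9 myeloid and dendritic markers from 139.2 to 399.4 and from 126.9 to 491.2. Their part in the results was not tested. Since these are bulk samples, fewer cells of a type and less RNA per cell cannot be told apart.

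Values are intensities on a linear scale, and differences are in log2(intensity + 32), tested with limma over all genes that passed the filter, with calls made where the Benjamini-Hochberg adjusted p was below 0.05. To follow the course, arrays were grouped into 0.5 to 2 h (4 arrays an arm), 4 to 8 h (3), 12 to 20 h (7), 25 to 36 h (4) and 42 to 72 h (8), so that the spread includes change within a group of times.

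**Figure D1:**
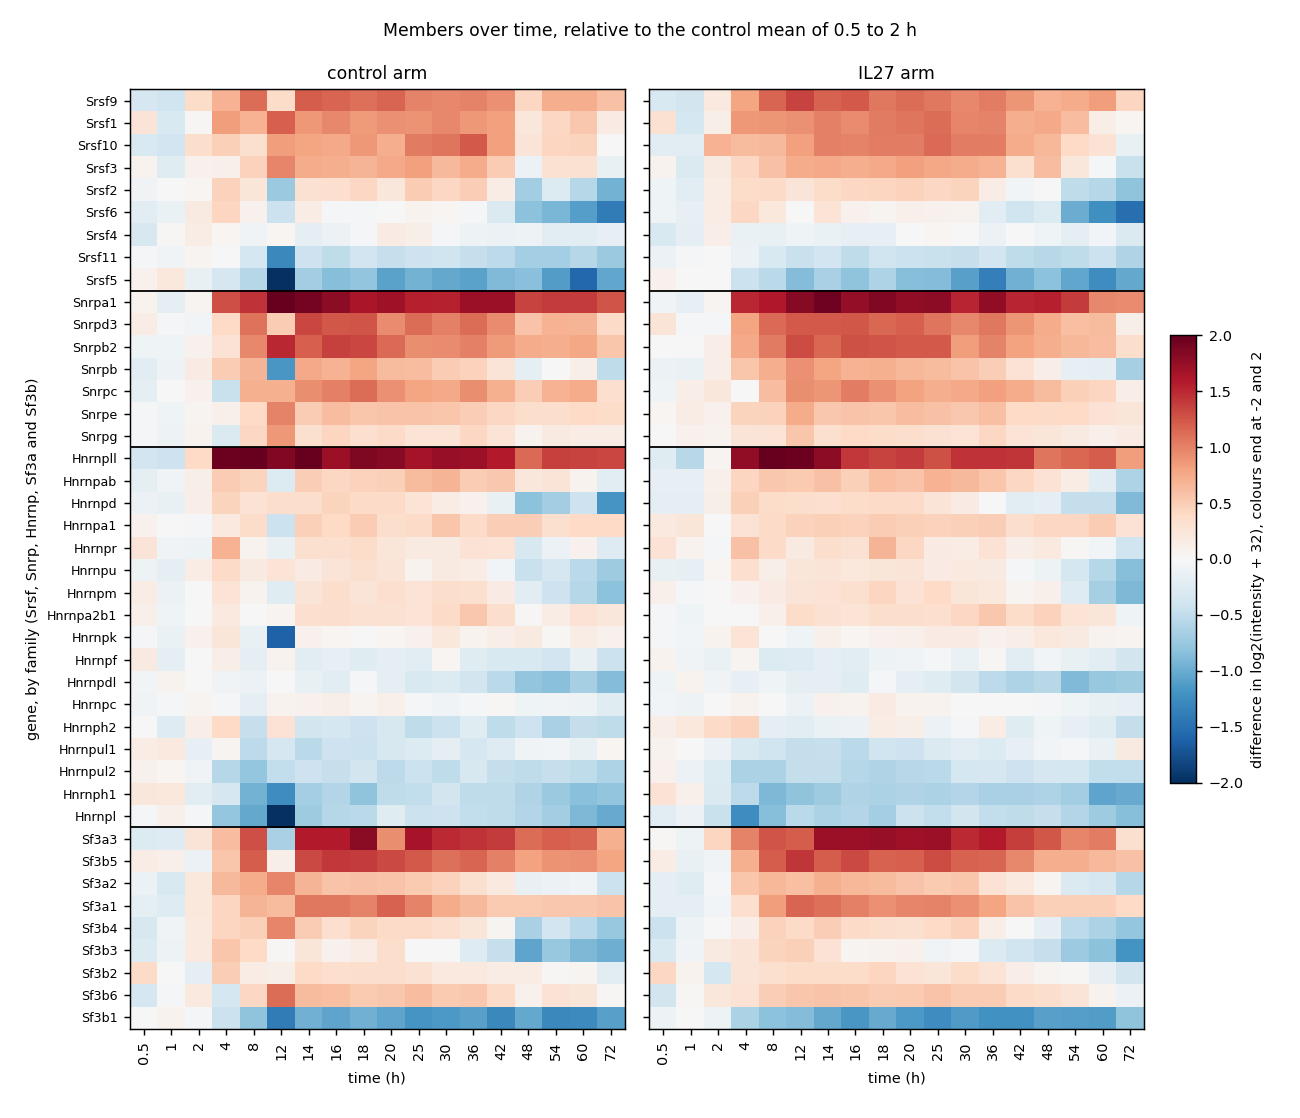
Heat map of the 42 members (rows, by family) over 18 times (columns, in h) in the control arm (left) and the IL27 arm (right), as the difference in log2(intensity + 32) from the control mean of 0.5 to 2 h, arrays of the same time averaged. Most Snrp, Sf3a and Sf3b rows turn red from 4 to 8 h and pale from 42 h on, Sf3b1, Hnrnph1 and Srsf5 turn blue, and the control 12 h column departs from its neighbours.

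Between 0.5 to 2 h and 4 to 8 h of stimulation, control cells raised many of these genes. The largest rise was that of Hnrnpll, the regulator of Ptprc exons. Its intensity was 569.5 at 0.5 h, 556.9 at 1 h, and 936.2 and 1063 on the arrays of 2 h. It was 3005 at 4 h, and 4307 and 4289 on the arrays of 8 h. All 3 later arrays lay above all 4 earlier ones, and the fitted difference was 2.30 ± 0.19 (SE, adjusted p = 2.17e-13), a 4.95-fold rise. A dimmer probe set of Hnrnpll gave 2.86.

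Snrpa1, a U2 protein, stood at 532.3, 443.1, 539.8 and 504.3 on the 4 arrays of 0.5 to 2 h. It read 1278 at 4 h, and 1732 and 1186 at 8 h. The groups did not overlap, and the rise was 1.40 ± 0.16 (SE, adjusted p = 8.83e-10). Among the other Snrp genes, Snrpd3, a member of the Sm ring, rose by 0.85 ± 0.17, and Snrpb2, Snrpb and Snrpe rose by 0.74, 0.62 and 0.30. In all, 5 of 7 Snrp genes passing the filter rose and 0 fell.

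Of the 9 Sf3a and Sf3b genes, 6 rose and 1 fell. Sf3a3, a subunit of Sf3a, had intensities of 276.8, 282.6, 394.5 and 442.3 on the arrays of 0.5 to 2 h and 544.6, 1082 and 722.1 on those of 4 to 8 h, all above the earlier ones. Its rise was 1.07 ± 0.34 (SE, adjusted p = 0.00796), and that of Sf3b5, the smallest subunit of Sf3b, was 0.99 ± 0.18. Sf3b1, the subunit that grips the branch point, went the other way. It measured 5946, 6283, 5841 and 5947 on the 4 early arrays and 4434, 3128 and 3703 on the 3 later ones, with no overlap and a fall of 0.69 ± 0.11 (SE, adjusted p = 1.94e-06).

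Only 2 of 9 Srsf genes passed the test in this step, both higher. Srsf9 read 591.2, 566.3, 1041 and 928.9 at 0.5 to 2 h and 1247, 1836 and 1543 at 4 to 8 h, so the groups did not overlap, and it rose by 0.98 ± 0.18 (SE, adjusted p = 1.06e-05). Srsf1, the founding SR protein, rose by 0.75 ± 0.18. In the Hnrnp family 3 genes were called higher, 3 lower and 11 were not called. Beside Hnrnpll, Hnrnpab rose by 0.47 ± 0.20 and Hnrnpa1 by 0.31 ± 0.12, and for both of these another probe set of the gene had the opposite sign. Hnrnph1, a factor that binds runs of G, fell by 0.74 ± 0.16, Hnrnpul2 by 0.71 ± 0.10 and Hnrnpul1 by 0.33 ± 0.12. Hnrnpl had the lowest difference of any member (-0.94) but was not called. Its intensities were 1297 to 1471 at 0.5 to 2 h and 628 to 780 at 4 to 8 h, without overlap. All arrays share the spread of the fit, the control 12 h array among them, and without that array Hnrnpl was called lower.

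In total 16 of 42 members rose and 4 fell (38.1% and 9.52%), while among the 7164 genes tested 26.3% were called higher and 26.5% lower. The median difference of the members was 0.29, and that of all genes was -0.0034. In the same step 5 of 7 CD4 T cell markers were called lower and 0 higher, with a median of -1.06. Of 4 measured myeloid and dendritic markers 2 were called lower and 0 higher. The part of these shifts in the members' rise was not tested. With both arms at 8 h left out, 8 members were called in place of 20. Without that time Snrpd3 (0.40), Hnrnph1 (-0.34), Sf3a3 (0.62), Sf3b5 (0.56) and Hnrnpab (0.50) were no longer called and the value of Sf3b1 was -0.43, Sf3a3 was also not called without the control array of 8 h that has no suffix (0.82), and without the control 12 h array the counts were 16 higher and 8 lower, with Srsf5, Srsf11, Hnrnpl and Hnrnpc joining the called genes.

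**Figure D2:**
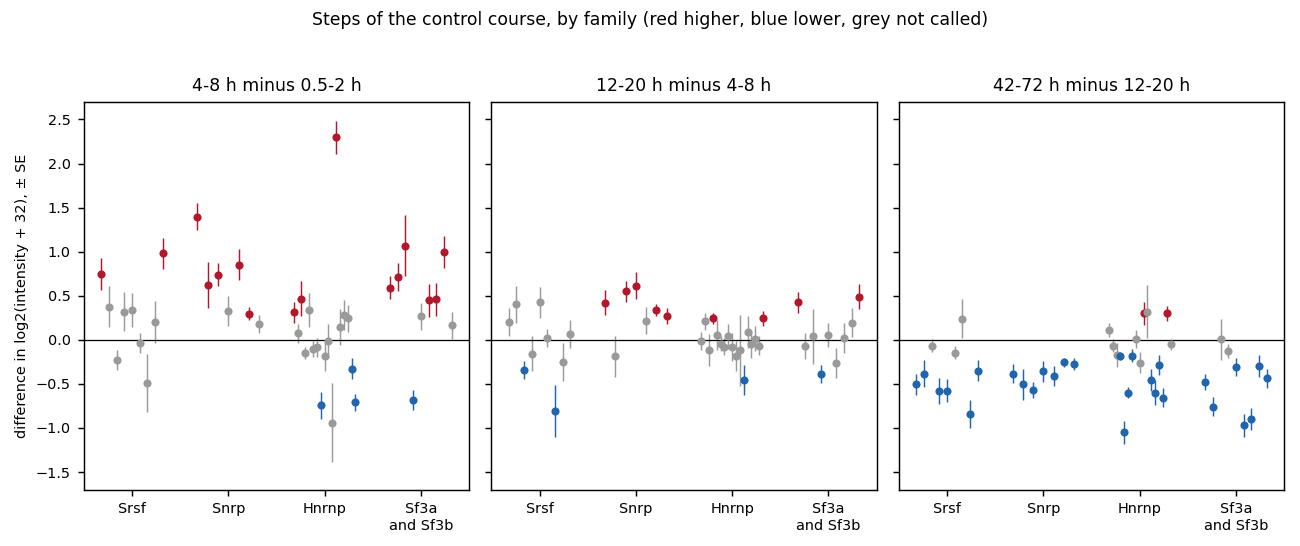
Difference in log2(intensity + 32) with its SE for each of the 42 members in 3 steps of the control course, by family, each point a gene (red called higher, blue called lower, grey not called). In the first step Hnrnpll lies at 2.30 and Snrpa1 at 1.40, and in the last step 28 members are called lower and 2 higher.

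From 4 to 8 h to 12 to 20 h, fewer members moved: 9 rose and 4 fell, a share of 21.4% higher against 20.2% of all genes tested, and of 9.52% lower against 13.2%. The Snrp family made up most of the rises, with 5 of 7 genes: Snrpc, a U1 protein, rose by 0.62 ± 0.16, Snrpb2, a U2 protein, by 0.55 ± 0.12, and Snrpa1, Snrpe and Snrpg by 0.42, 0.34 and 0.27. In the Sf3a and Sf3b group, Sf3b6, which touches the branch point, rose by 0.49 ± 0.14 and Sf3a1 by 0.43 ± 0.12, and Sf3b1 fell further, by 0.39 ± 0.10. Hnrnpc and Hnrnpul2 rose by 0.25 and 0.24. Hnrnpll fell from its peak by 0.46 ± 0.17, and of the SR proteins Srsf5 and Srsf11 fell by 0.81 ± 0.30 and 0.35 ± 0.10. Without the control 12 h array, on which Srsf5 read 443.0, the falls of Srsf5 and Srsf11 were 0.40 and 0.23 and still called. Calls of this step rest on the 3 control arrays of 4 and 8 h. Without the control array of 4 h, or without both arms at 4 h, there were 4 calls in place of 13, and without the control array of 8 h with title suffix d there were 8. Without the 4 h array Snrpc (0.23), Snrpb2 (0.32), Sf3b6 (0.23), Sf3a1 (0.34), Sf3b1 (-0.26), Srsf5 (-0.73) and Srsf11 (-0.23) were not called, and without the 8 h array of suffix d neither were Hnrnpll (-0.37), Hnrnpc (0.15) and Hnrnpul2 (0.09). Other probe sets had the opposite sign for 5 of the 10 called genes that have more than 1, namely Hnrnpc, Hnrnpul2, Sf3a1, Snrpb2 and Srsf11.

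Between 12 to 20 h and 42 to 72 h most members fell in control cells. Of the 42, 28 were called lower and 2 higher (66.7% and 4.76%), against 29.2% lower and 27.9% higher of all genes tested, and the median difference was -0.33, with -0.01 for all genes. All 7 Snrp genes fell, as did 7 of 9 Sf3a and Sf3b genes, 6 of 9 Srsf genes and 8 of 17 Hnrnp genes. Leaving out any single array or time of these groups left between 23 and 31 calls. Nkg7 and Cd8b1 rose over the same step, as given above, and of 7 CD4 T cell markers 3 were called higher and 1 lower.

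Hnrnpd, also known as AUF1, which binds AU-rich messages, had the largest fall. Its lowest, median and highest intensities were 3399, 3568 and 3857 on the 7 control arrays of 12 to 20 h and 1134, 1745 and 2501 on the 8 of 42 to 72 h. The groups did not overlap, and the difference was -1.05 ± 0.13 (SE, adjusted p = 4.88e-09). Hnrnpu, a protein of the nuclear scaffold, fell by 0.66 ± 0.10.

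Sf3b3, the scaffold of Sf3b, went from 1478, 1681 and 2601 (lowest, median, highest) to 646.4, 862.5 and 1217, without overlap, a fall of 0.97 ± 0.13 (SE, adjusted p = 1.92e-08). Sf3b4 fell by 0.90 ± 0.13. Srsf6 ran from 2632, 3475 and 3958 to 1240, 1841 and 3039, so that the groups overlapped. Its fall was 0.84 ± 0.16 (SE, adjusted p = 2.12e-05). The fall of Srsf2, an SR protein that stays in the nucleus, was 0.58 ± 0.15.

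Among the Snrp genes, Snrpb2 fell by 0.57 ± 0.09 and Snrpb by 0.50 ± 0.18 (adjusted p = 0.014). The call of Snrpb was lost without both arms at 16 h (-0.40), at 20 h (-0.43) or at 72 h (-0.36), and without the control 12 h array its fall was 0.77. Both genes that went up were of the Hnrnp family, Hnrnpul1 by 0.30 ± 0.08 and Hnrnpk by 0.30 ± 0.13 (adjusted p = 0.0446). The rise of Hnrnpk was 0.07 (adjusted p = 0.358) without the control 12 h array, and 2 bright probe sets of this gene were lower by 0.38 and 0.39. Without the 12 h array 30 members fell and 1 rose. Of the 21 called genes with more than 1 probe set, 6 had another of opposite sign: Hnrnpdl, Hnrnpf, Hnrnpk, Hnrnpr, Srsf1 and Srsf3.

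**Figure D3:**
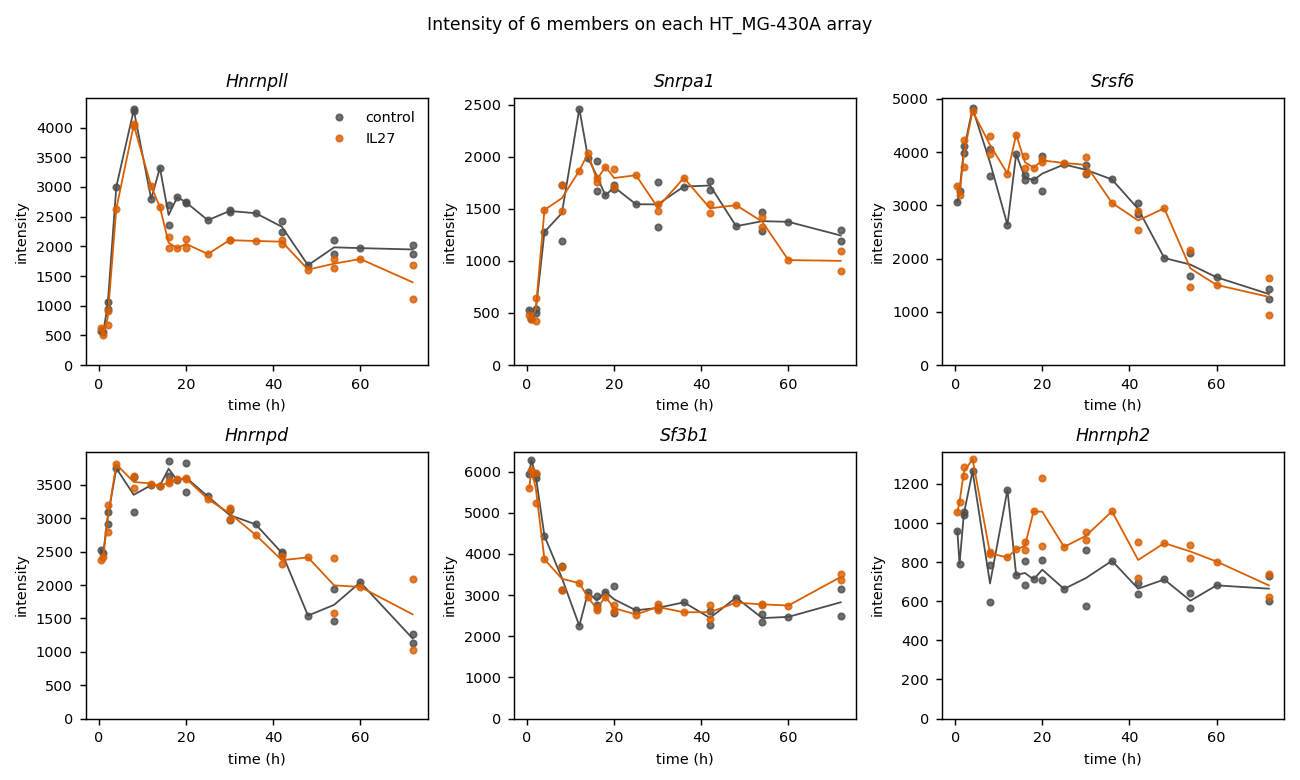
Intensity (linear axis from 0) of 6 members on each HT_MG-430A array against time in h, control arrays in grey and IL27 arrays in orange, with lines through the mean of each time. Hnrnpll peaks at 8 h and lies lower in the IL27 arm from 14 h on, Srsf6 and Hnrnpd decline after 36 h, Sf3b1 stays below its level of 0.5 to 2 h, and Hnrnph2 lies higher with IL27 at all times but 12 h.

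The early rise and the late fall involve separate arrays, and 13 of the 16 genes that rose from 0.5 to 2 h to 4 to 8 h were among the 28 that fell from 12 to 20 h to 42 to 72 h (81.25% of the first list and 46.4% of the second, where 66.7% of all members measured fell late). They are 5 Snrp genes (Snrpa1, Snrpb, Snrpb2, Snrpd3, Snrpe), 5 of Sf3a and Sf3b (Sf3a1, Sf3a2, Sf3b3, Sf3b4, Sf3b5), Srsf1, Srsf9 and Hnrnpll. The 3 others were Hnrnpa1, Hnrnpab and Sf3a3. Of all genes tested 29.2% fell late, and the share among those that rose early was not counted. With 12 h left out, the highest time mean of a member in control cells lay at 0.5 to 2 h for 9 genes, at 4 to 8 h for 10, at 12 to 20 h for 16, at 25 to 36 h for 7 and at 42 to 72 h for 0. These groups hold unequal numbers of times, and the peaks of all genes were not counted beside them.

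Promoter sequences were looked at because so many members rose and fell together. RefSeq promoter windows (GRCm38.p6) were matched for 38 of the 43 members. In each, the 250 bases before the 5′-most start of the promoter table were searched on both strands for 5 motifs: the E-box CACGTG, the ETS core CCGGAAG, the CCAAT box, the TATA box spelled TATAAA, and the AP-1 site TGANTCA with N for any base. None of these motifs is part of another. That start lay within 10 bases of the 5′ end of the gene in the RefSeq gene table for 20 of the 38 members. For the other 18 it lay further inside the gene, so that their windows are partly or, for 10 of them, wholly within it. The ETS core was found before 14 of 38 members (36.8%), in 16.6% of 5907 windows of genes that passed the filter and in 7.07% of all 27025 windows. Over windows that start within 10 bases of the gene's 5′ end, a limit chosen after seeing the data, it was found in 10 of 20 for members (50%), 16.2% for genes that passed the filter and 5.87% for all genes. By family, over all windows, it was found in 6 of 7 windows of Sf3a and Sf3b genes, 3 of 7 of Snrp, 3 of 9 of Srsf and 2 of 15 of Hnrnp. CCAAT was found before 47.4% of members (37.2% of genes that passed the filter), CACGTG before 2.63% (9.02%), TATAAA before 10.5% (5.86%) and TGANTCA before 5.26% (3.84%). The median GC content of the windows was 60.4% for members and 60.0% for genes that passed the filter. Of the members with a window that holds CCGGAAG 10 of 14 fell from 12 to 20 h to 42 to 72 h in control cells, and of those without it 14 of 23 measured ones fell. A match of letters is a description and does not show that a factor binds.

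The upstream windows of 3 members are printed to show where the letters lie in genes of the rise or the late fall: Sf3a3 (chr4:124714611-124714860, plus strand), Sf3b3 (chr8:110846804-110847053, minus strand) and Snrpb2 (chr2:143062819-143063068, plus strand), each 5′ to 3′ along the gene and ending at the base before its start in the promoter table. That start is the 5′ end of the gene for Sf3a3 and Snrpb2 and lies 3 bases inside it for Sf3b3. All 3 printed windows hold the ETS core, so they do not stand for the members at large. Of the 38 members with a window 24 lack it, among them Snrpa1, Snrpd3, Snrpe, Srsf1 and Srsf9, which also rose early and fell late. Hnrnpll, Snrpb, Sf3b4 and Sf3b5 rose and fell too but had no window. Capitals mark any of the 5 motifs, and the ETS core appears here as its reverse complement, CTTCCGG, beginning 90 bases before the start in Sf3a3, 229 in Sf3b3, and 28 and 9 in Snrpb2.
Sf3a3: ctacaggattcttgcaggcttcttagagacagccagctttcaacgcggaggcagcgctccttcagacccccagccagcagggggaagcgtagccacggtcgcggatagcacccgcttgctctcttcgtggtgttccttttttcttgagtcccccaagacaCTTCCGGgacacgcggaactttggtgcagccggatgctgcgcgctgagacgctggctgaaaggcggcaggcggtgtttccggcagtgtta
Sf3b3: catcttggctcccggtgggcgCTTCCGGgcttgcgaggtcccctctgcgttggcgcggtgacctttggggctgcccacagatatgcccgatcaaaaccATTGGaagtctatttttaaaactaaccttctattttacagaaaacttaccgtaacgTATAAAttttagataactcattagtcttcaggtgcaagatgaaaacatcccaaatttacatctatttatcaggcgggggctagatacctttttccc
Snrpb2: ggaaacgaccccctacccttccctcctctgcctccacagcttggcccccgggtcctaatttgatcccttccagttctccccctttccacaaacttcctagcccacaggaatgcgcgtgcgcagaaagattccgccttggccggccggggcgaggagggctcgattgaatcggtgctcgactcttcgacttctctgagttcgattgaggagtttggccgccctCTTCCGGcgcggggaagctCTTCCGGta
Sf3b3 also holds the CCAAT box on the other strand, 152 bases before its start, and TATAAA at 96 bases.

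In the IL27 arm the course had the same outline. From 0.5 to 2 h to 4 to 8 h 17 members rose and 4 fell (40.5% and 9.52%, against 29.4% and 24.3% of all genes tested), and 14 of the 17 had also risen in control cells, where there were 16. The 4 that fell were the same in both arms: Hnrnph1, Hnrnpul1, Hnrnpul2 and Sf3b1. Hnrnpll rose by 2.35 ± 0.19, Snrpa1 by 1.61 ± 0.16, Srsf9 by 1.11 ± 0.18, Sf3b5 by 1.09 ± 0.18, Sf3a3 by 0.98 ± 0.34, Snrpd3 by 0.97 ± 0.17, Srsf1 by 0.84 ± 0.18 and Hnrnpab by 0.53 ± 0.20. Hnrnph1 fell by 0.72 ± 0.16, Sf3b1 by 0.68 ± 0.11 and Hnrnpul2 by 0.49 ± 0.10. Without the IL27 array of 8 h that has no suffix there were 13 calls, and without both arms at 8 h there were 12. In both of these settings Sf3a3 (0.78 and 0.79) and Hnrnpab (0.50 and 0.46) were not called, nor was Hnrnph1 (-0.47) without both arms at 8 h.

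From 4 to 8 h to 12 to 20 h the IL27 arm had 3 members higher and 2 lower, with 14.1% and 12.6% of all genes tested. Snrpc rose by 0.49 ± 0.16, Sf3a1 by 0.35 ± 0.12 and Hnrnpa2b1, which also takes part in RNA transport, by 0.26 ± 0.10, while Hnrnpll fell by 0.64 ± 0.17 and Sf3b1 by 0.32 ± 0.10. In place of these 5 calls there was 1 without the IL27 array of 4 h or without both arms at 4 or at 16 h, and there were 3 without the IL27 array of 8 h with suffix d or without both arms at 20 h. Without the control 12 h array there were 9. From 12 to 20 h to 42 to 72 h 29 members fell and 1 rose (32.4% and 30.7% of all genes tested), and 27 of the 29 had fallen in control cells as well, where there were 28. The falls of Srsf6 (1.02 ± 0.16), Sf3b3 (0.90 ± 0.13), Snrpb (0.87 ± 0.18), Hnrnpd (0.84 ± 0.13), Sf3a2 (0.83 ± 0.11), Srsf2 (0.81 ± 0.15), Hnrnpm (0.66 ± 0.14) and Snrpd3 (0.64 ± 0.12) were the largest of their families, and Hnrnpul1 rose by 0.44 ± 0.08. All 17 genes of the early rise in this arm fell late, where 69.0% of all members measured and 32.4% of all genes tested fell. Whether a step differed between the arms was not tested, and the overlap of calls between arms or steps was not counted over all genes.

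The effect of IL-27 at matched times was small for these families. It was fitted as IL27 minus control within times for an early (0.5 to 4 h, 5 arrays an arm), a middle (8 to 20 h, 9) and a late window (25 to 72 h, 12). In the early window 0 of 42 members were called by limma, against 1.8% of all genes called higher and 0.53% lower. At an unadjusted p under 0.05 there were 4, and the smallest adjusted p were those of the Sm genes Snrpe (0.14 ± 0.05, adjusted p = 0.134) and Snrpg (0.16 ± 0.06, adjusted p = 0.2). Without the control 12 h array 1 member, Hnrnpl, was called lower early. In the middle window Hnrnpll was lower and no other member was called (4.83% of all genes higher and 5.86% lower). In the late window Hnrnph2 was higher, and Hnrnpll and Hnrnph1 were lower (8.78% higher and 9.76% lower). Cd8b1 and Nkg7 differed between the arms in the middle and late windows, as given above. Of 7 CD4 T cell markers 2 were called lower early, 3 lower in the middle window, and 2 higher and 1 lower late. The members' shares of 0 to 4.76% lie below those of all genes tested in every window and direction. With 42 members these shares rest on very few calls, and whether they differ from those of all genes was not tested.

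Hnrnpll was lower with IL-27 from the middle window on. In the late window its control intensities had a lowest, median and highest value of 1682, 2170 and 2614, and its IL27 intensities of 1111, 1829 and 2113. The ranges overlapped, but the IL27 value was the lower at all 8 late times, and over the whole course at 16 of 18. The difference was -0.26 ± 0.07 (adjusted p = 0.0121) in the middle window and -0.27 ± 0.06 (adjusted p = 0.00111) in the late window, 16.8% lower in the latter. Without both arms at 16 h or at 20 h the middle value was -0.25 or -0.21 and no member was called there, without the control array of 8 h that has no suffix there were 4 calls, and 2 in 7 settings that left out another array or time of 8, 12 or 20 h. The mean over its probe sets gave -0.33 and -0.39.

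Hnrnph2, a close relative of Hnrnph1 on the X chromosome, was higher with IL-27. Late control arrays ranged over 564.5, 672.1 and 862.1 (lowest, median and highest) and late IL27 arrays over 622.1, 881.8 and 1060, with overlap. The late difference was 0.31 ± 0.07 (adjusted p = 0.00256), an increase of 25.0%, and it was called under all 8 alternatives and in each of the settings that left out an array or a time of the window. The sign was positive at 17 of 18 times, all but 12 h. In the early and middle windows the values were 0.24 ± 0.12 and 0.25 ± 0.09, with adjusted p = 0.44 and 0.055, and without the control 12 h array the middle value was called. Hnrnph2 has only this probe set.

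Hnrnph1 was 8.6% lower late (-0.13 ± 0.04, adjusted p = 0.0361). In the late window control arrays read 2219, 2706 and 3196 (lowest, median and highest) and IL27 arrays 1826, 2502 and 2751, with overlap. The call was lost in several settings, among them without the filter on low values, with the mean over probe sets (-0.06) and without both arms at 30 h (-0.11), and its dimmer probe set gave 0.01.

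**Figure D4:**
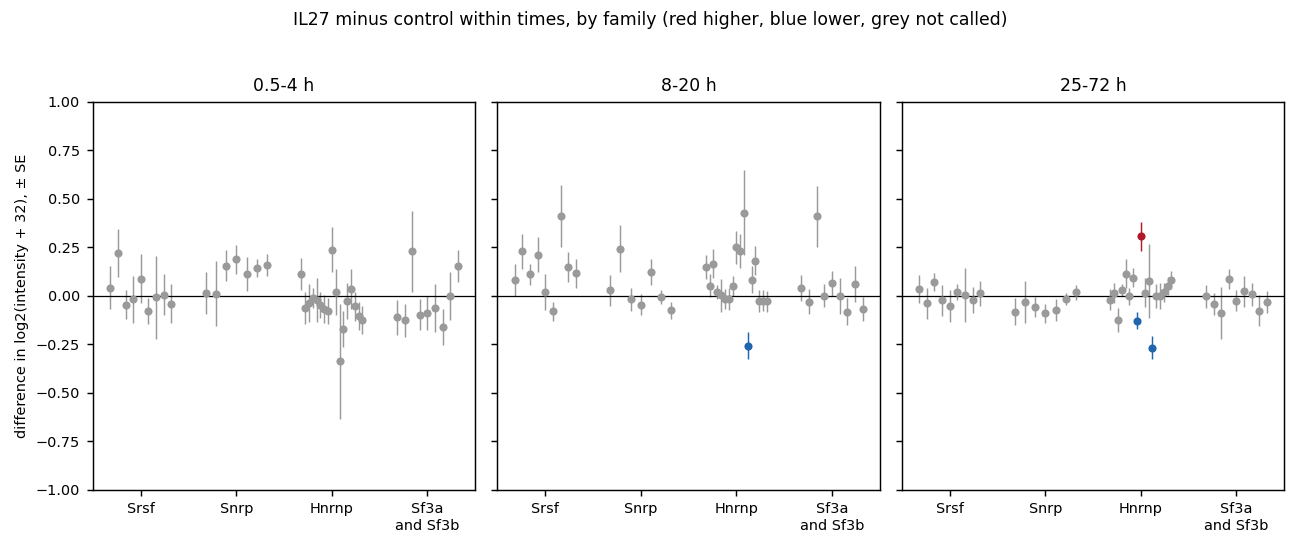
IL27 minus control in log2(intensity + 32) with its SE for the 42 members in the early (0.5 to 4 h), middle (8 to 20 h) and late (25 to 72 h) windows, by family, each point a gene. Grey points, not called, make up 42, 41 and 39 of the 42, Hnrnpll is the blue point of the middle window, and Hnrnph2 (red), Hnrnpll and Hnrnph1 (blue) are the coloured points of the late window.

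The change of the effect from the early to the late window was called for 1 member, Snrpc, with 7.09% of all genes tested called in either direction. Its effect was 0.19 ± 0.07 early and -0.09 ± 0.05 late, a change of -0.28 ± 0.09 (adjusted p = 0.0483). At 4 h, where the effect of Snrpc was largest, the control array read 652.9 and the IL27 array 901.9. Of 46 settings that left out an array or a time, 35 changed this count, 33 of them to 0. All 7 Snrp genes had a negative change, with a median of -0.16 where that of all genes was 0.02, and 6 of the 7 were not called. How many of all genes had a negative change was not counted. At 4 h, with 1 array an arm, the effect on these 7 genes ran from 0.04 (Snrpb) to 0.54 (Snrpg). For each of them but Snrpb, 4 h held the largest effect of the early times. Without the control 12 h array 3 members were called, Hnrnpl and Snrpe in addition.

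On the 6 Mouse430A_2 arrays with matched arms 0 members and 0.0% of 6478 genes tested were called, in a fit with 2 residual degrees of freedom, and 1 member had an unadjusted p under 0.05. The members with the smallest adjusted p were again Hnrnph2 and Hnrnpll. Hnrnph2 read 1270, 1081 and 996.4 in control cells at 4, 16 and 48 h and 1843, 1324 and 1243 with IL-27, higher at all 3 times, with a difference of 0.37 ± 0.12 (adjusted p = 0.492). Hnrnpll read 4655, 5006 and 4687 in control cells and 4119, 4253 and 4162 with IL-27, lower at all 3 times, with a difference of -0.19 ± 0.09 (adjusted p = 0.675). These values have the direction found on the other array type but did not pass the test. Lower values with IL-27 were common on these arrays, with 26 of 42 members negative and a median of -0.07 over all genes.

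The same array type holds the only array of resting cells. With 1 array at each time there is no test, and members were counted past a 2-fold difference from 0 h. At 4 h 7 of 42 members were 2-fold or more higher and 0 lower, at 16 h 11 and 0, and at 48 h 8 and 0. Among all genes 17.3%, 17.5% and 17.8% were that much higher and 16.8%, 17.4% and 16.1% that much lower. The members' share was thus 16.7%, 26.2% and 19.0% higher. Their median differences were 0.44, 0.47 and 0.30, where those of all genes were 0.05, 0.0 and -0.01.

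Srsf10, an SR protein that represses splicing when it loses its phosphates, had the largest difference: 572.9 at 0 h and 1967, 1854 and 1640 at 4, 16 and 48 h, or 1.72, 1.64 and 1.47 on the log2 scale. Snrpa1 read 2401 at rest and 6614, 6529 and 5620 later. Hnrnpll read 1856 at rest, below the 3 later control values given above by 1.31, 1.42 and 1.32. All 3 genes were at least 2-fold above rest at each of the later times, as were Hnrnpab and Srsf9. Sf3b1 was lower than at rest throughout, with 7024 at 0 h and 4959, 4061 and 3670 after it, or -0.50, -0.79 and -0.93. With the mean over probe sets 4, 7 and 3 members passed 2-fold at the 3 times.

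**Figure D5:**
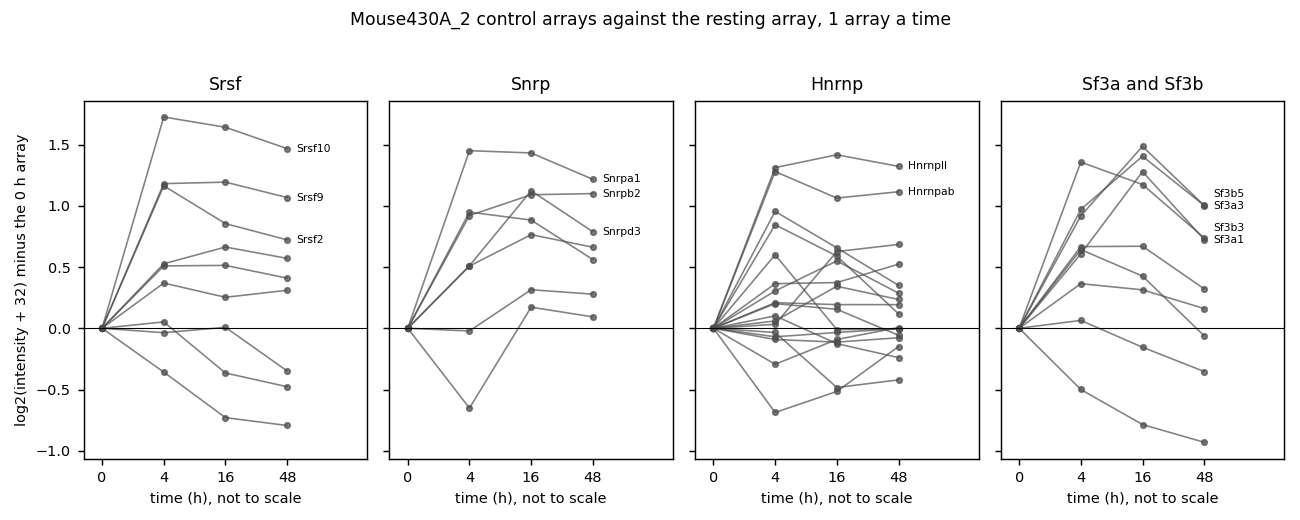
Difference of log2(intensity + 32) from the 0 h array for each member on the Mouse430A_2 control arrays of 4, 16 and 48 h, by family, 1 array a time and lines joining the values of a gene (the time axis is not to scale). Genes that differ by more than 1 at any time are named, and all of them lie above 0, from Srsf10 at 1.72 at 4 h down.

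Other genes of the splicing machinery were read from 4 lists. Of 21 measured genes for assembly of small nuclear ribonucleoproteins and their LSm proteins, 13 rose and 0 fell in control cells from 0.5 to 2 h to 4 to 8 h, with a median of 0.47, and 1 rose and 13 fell from 12 to 20 h to 42 to 72 h, with a median of -0.42. Clns1a, which loads Sm proteins, rose by 1.01 ± 0.14 and Tgs1, which methylates the cap of the snRNAs, by 0.95 ± 0.16. Gemin2 and Lsm8 rose by 1.18 and 0.94 in the middle step. In the late step the cap-binding Ncbp2 fell by 1.25 and Lsm7 by 0.79.

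Of 50 other core spliceosome genes 13 rose and 9 fell in the first step, and 0 rose and 31 fell late (40 fell in the IL27 arm). Prpf31, a protein of the tri-snRNP, rose by 2.09 ± 0.28 and Syf2 fell by 1.29 ± 0.17 first. The helicase Dhx15 and the tri-snRNP protein Sart1 fell by 0.69 and 0.92 late. The list of 9 kinases and carriers of SR proteins went the other way in the first step, with 1 higher and 7 lower and a median of -0.98: Srpk2 fell by 2.01 ± 0.26 and Dyrk1a by 1.24 ± 0.16. Clk1 and Clk4 each fell by 0.66 in the middle step, and late 3 rose and 1 fell, with Clk3 higher by 0.79 and the SR protein importer Tnpo3 lower by 0.58. Of 39 other splicing regulators 6 rose and 12 fell first, Celf2 by 2.04 ± 0.23 and Mbnl1 by 0.79 ± 0.12, and 4 rose and 22 fell late, among them Mbnl3, which rose by 0.99, and Rbm25, which fell by 0.53. Shares of all genes called in these steps are those given above.

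With IL-27 few genes of these lists were called, but some differed by more than any called member. Gemin8, a subunit of the SMN complex, was higher by 0.71 ± 0.10 in the middle window and 0.85 ± 0.08 in the late window (adjusted p = 5.6e-10). Mbnl3 was lower late by 0.86 ± 0.13 (adjusted p = 3.0e-06), Celf2 lower in the middle window by 0.67 ± 0.10, and Rbmx, an hnRNP of the X chromosome whose symbol lies outside the prefixes used here, was lower by 0.32 and 0.33 in the middle and late windows. Srpk2 was lower in the middle window by 0.44 and Srpk1 higher late by 0.21. Early, Lsm7 was lower by 0.52 and Lsm4 higher by 0.22. Over the 4 lists, 119 genes were tested, of which 2 were called early, 8 in the middle window and 7 late, or 1.68%, 6.72% and 5.88%. Of all genes tested 2.33%, 10.7% and 18.5% were called in these windows in either direction.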

How the data were processed

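The authors deposited 1 linear intensity per probe set and array, made with MAS5 per the submitters' processing notes, which give no version; array medians ran from 28.0 to 36.6 on HT_MG-430A arrays. Probe sets were named from the platform annotation, and those that name 1 gene were used, the brightest per gene. Intensities as deposited were turned into log2(intensity + 32), where the pseudocount of 32 understates changes of dim genes. Genes above their array's median on at least 5 arrays (3 on Mouse430A_2) were kept, and limma 3.58.1 in R 4.3.3 was fitted over 7164 and 6478 genes, with empirical Bayes moderation and Benjamini-Hochberg adjustment at 0.05. The course was fitted as a mean per arm and group of times, the IL-27 effect as IL27 minus control within times.

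The text names, per comparison and family, the 2 called members with the largest difference each way, or the 2 with the smallest adjusted p where none was called, and 2 called genes per other list. Other called members are named where a family's calls are listed. The members, the gene lists and this rule were chosen with earlier results of these data known. Tested on simulated data, the course fit recovered 31% of genes changed by 0.5 and 79% of those changed by 1 (log2) between 0.5 to 2 h and 4 to 8 h, and the late IL-27 fit 89% and 98%. Arrays that share a time differ by a title suffix d of unstated meaning, which was used as a block only in an alternative. The number of arrays limits the precision. The 16 pairs of arrays of 1 arm and time differed by a median of 0.10 (log2) over the members. For single members the gap reached 1.59 (Sf3a3 on the control arrays of 20 h) and 1.00 (Hnrnpd on the IL27 arrays of 72 h).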

Additional observations from a re-analysis of the deposited data

Results flagged for a closer look

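Snrpc, a protein of the U1 particle, is listed here because its IL-27 effect differed between times by a test of the difference itself: late minus early gave -0.28 on the log2 scale (adjusted p = 0.0483). The adjusted p was 0.0502 with a pseudocount of 100 and 0.0505 with title suffix d as a block, so the call depends on these settings. No arm and time held 4 or more arrays, so a search for a single outlying array within a group could not be made.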

How the results depend on the processing

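Alternatives changed 1 choice each, and counts are of called members among the 42. With the mean over probe sets there were 7 calls from 4 to 8 h to 12 to 20 h in control cells, 3 in the IL27 arm and 4 in the middle IL-27 window, and Hnrnpk went from a rise to -0.14 in the late control step. Without arrays of suffix d the same middle steps had 7 and 1 calls, and the change of the IL-27 effect had 0. Without the control 12 h array, an alternative that is also given in the text, the middle IL27 step had 9 calls, and the early and middle windows and the change had 1, 2 and 3. The change had 0 calls with a pseudocount of 100, without the filter on low values and with the replicate block. Members 2-fold above rest numbered 4, 7 and 3 at 4, 16 and 48 h with the mean over probe sets, and 5 at 48 h after quantile normalization. With title suffix d as a replicate block there were 20, 13 and 30 calls in the control steps, 23, 5 and 30 in the IL27 steps, and 0, 1 and 3 in the IL-27 windows, so the block changed no other call count by over 1.5 times. Leaving out 1 array or time gave 8 to 22, 4 to 16 and 23 to 31 calls in the control steps, 12 to 23, 1 to 7 and 28 to 32 in the IL27 steps, 0 to 0, 0 to 4 and 2 to 3 in the IL-27 windows, 0 to 2 for the change and 0 to 0 on Mouse430A_2. Of 61 called values of named members, 32 kept their call in every setting, among them the late IL-27 values of Hnrnph2 and Hnrnpll, the early rises of Hnrnpll, Snrpa1, Srsf9 and Srsf1, and the late falls of Hnrnpd, Sf3b3, Sf3b4 and Srsf6. For values that lost a call the cause was not tested. Array intensities carry no depth, and dim probe sets such as that of Snrpn lie below the array median, which limits what can be read of them. Some Mouse430A_2 values repeat exactly: Srsf1 read 5163.4 on the IL27 array of 4 h and on the control, IL27 and GFPP arrays of 48 h. Hnrnpd read 6556.4 on both GFPP and GFPN. Hnrnpa1, Sf3b2, Snrpb2, Hnrnpm and Hnrnpul2 also held repeated values on this array type. In each of these genes, Srsf1 and Hnrnpd included, the repeated value is the gene's median over the Mouse430A_2 arrays. How such repeats arose was not tested, so the processing is known only from the submitters' notes. Whether these cells are separate measurements is not known, and they entered the comparisons on this array type as deposited.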

Other observations

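The 48 h samples titled GFPP and GFPN, 1 array each, held the members at close to the same level. GFPP minus GFPN ran from -0.37 for Snrpd3 to 0.18 for Hnrnpm on the log2 scale, with a median of -0.03, and 13 of 42 members were positive. The GFPP value of Hnrnpm is one of the repeated values given above, and Hnrnpa1, Hnrnpd and Sf3b2 held the same repeated value on both arrays. None of the 42 differed 2-fold, and 0.152% of all genes did.

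The sign of IL27 minus control over the members was not steady from one late time to the next. At 48 h, where each arm has 1 array, 34 of 42 members were positive with a median of 0.18, at 60 h 11 were positive with a median of -0.08, and at 72 h 13 were positive with a median of -0.13. The control 48 h array had a best correlation of 0.9766 with another array, the lowest after the control 12 h array, and the IL27 48 h array had 0.9939. Signs over all genes were not counted, so these swings cannot be called particular to the members.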
